A study of Mus musculus with 6 samples.

Results

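The CDK inhibitor genes are a family of 7 genes, Cdkn1a, Cdkn1b, Cdkn1c, Cdkn2a, Cdkn2b, Cdkn2c and Cdkn2d. They were taken by gene symbol from the 24318 symbols in the tables of 6 RNA-seq libraries, and all 7 were found in every table. The libraries come from mouse thymocytes of the double-negative 1 (DN1) stage, the earliest in the thymus. The sort kept CD44+ cells that lacked CD25, CD8a, TCRb and other lineage markers, from animals aged 5 to 8 weeks. The titles of 3 libraries read Tle134 mutant and KO, and this group is called labelled Tle134-deficient here. It is read as deficient in Tle1, Tle3 and Tle4, which encode Groucho/Tle corepressors, and a group of 3 is labelled WT. The sources used here give neither how the deficiency was made nor whether each library is a separate animal. A p-value therefore speaks only of the spread among libraries, part of which may be technical.

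CDK inhibitors are small proteins that bind cyclin-dependent kinases or their cyclin complexes and hold cells in the G1 phase. The Cip/Kip branch (Cdkn1a, Cdkn1b and Cdkn1c, encoding p21, p27 and p57) acts mainly on cyclin E and cyclin A complexes with Cdk2. The Ink4 branch (Cdkn2a, Cdkn2b, Cdkn2c and Cdkn2d, encoding p16, p15, p18 and p19) acts on Cdk4 and Cdk6, the partners of the D cyclins. In the thymus, p27 and p18 are known for limiting the division of progenitors and thymocytes, and loss of p18 or p27 enlarges lymphoid organs in mice. The Cdkn2a locus is usually silent in young tissue and also encodes Arf, which stabilises p53 through Mdm2.

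Values are FPKM, fragments per kilobase of transcript and per unit of sequencing depth, a scale on which genes of different length can be compared. Each value has a deposited lower and upper bound. Read as 2 SD of counting error to either side, the width of that interval implies how many fragments lie behind a value, and reads that fit several loci widen it. By this measure the loci with a symbol held 1.51e+06 to 4.34e+06 fragments in the libraries labelled Tle134-deficient and 1.42e+06 to 3.24e+06 in the WT libraries, with replicate 1 the shallowest of each group. Cd44 was present at 32.5 to 74.3 FPKM across the libraries labelled Tle134-deficient and at 27.5 to 53.4 FPKM in WT, Il2ra, which encodes CD25, was at 4.22 to 7.36 FPKM against 1.69 to 3.59 FPKM, and Cd8a was at 0 to 0.419 FPKM against 0.274 to 2.48 FPKM. The targeted genes went against the label: Tle1 was at 11.5, 11.3 and 11.1 FPKM across the libraries labelled Tle134-deficient, against 1.37, 1.19 and 3.61 FPKM in WT, and Tle3 at 82.6, 77.5 and 58.6 FPKM against 26.1, 35.9 and 23.4 FPKM. Tle4 was at 27.8, 35.2 and 17.8 FPKM against 17.9, 18.8 and 14.5 FPKM. None of the 3 passed the threshold (limma, adjusted p = 0.0954 for Tle1, 0.234 for Tle3 and 0.726 for Tle4). A value for a whole gene includes reads outside any deleted exons, so these values check the label only in part, and the group is called the libraries labelled Tle134-deficient throughout.

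The promoters of Cdkn1b and Cdkn2a are shown because these are the members whose groups did not overlap. The sequences are from RefSeq (build GRCm38.p6, while the expression tables use mm9) and run from 250 bases before to 50 after the start of transcription, 5′ to 3′ on the strand of the gene. Capitals mark matches, on either strand, to the GC box GGGCGG and to the E2F motif TTTNGCGC.
Cdkn1b, chr6:134920151-134920450, plus strand: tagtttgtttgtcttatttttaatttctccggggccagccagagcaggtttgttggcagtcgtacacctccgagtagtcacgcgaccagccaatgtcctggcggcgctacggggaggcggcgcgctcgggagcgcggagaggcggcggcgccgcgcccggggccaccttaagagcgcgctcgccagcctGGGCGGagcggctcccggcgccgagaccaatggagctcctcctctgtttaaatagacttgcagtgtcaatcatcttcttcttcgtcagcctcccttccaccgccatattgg
Cdkn2a, upstream start, chr4:89294570-89294869, minus strand: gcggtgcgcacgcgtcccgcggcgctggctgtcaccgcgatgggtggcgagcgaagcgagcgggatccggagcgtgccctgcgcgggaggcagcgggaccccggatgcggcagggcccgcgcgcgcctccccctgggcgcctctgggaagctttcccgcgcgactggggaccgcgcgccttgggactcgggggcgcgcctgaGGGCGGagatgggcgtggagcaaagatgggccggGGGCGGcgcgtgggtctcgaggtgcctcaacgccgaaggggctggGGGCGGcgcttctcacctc
Cdkn2a, downstream start, chr4:89282143-89282442, minus strand: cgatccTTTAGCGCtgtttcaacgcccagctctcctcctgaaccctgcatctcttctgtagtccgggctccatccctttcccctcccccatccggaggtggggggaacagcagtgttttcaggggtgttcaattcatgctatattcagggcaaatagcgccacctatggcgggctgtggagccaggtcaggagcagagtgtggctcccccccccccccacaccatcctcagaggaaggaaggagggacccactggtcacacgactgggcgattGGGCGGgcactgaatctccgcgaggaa

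RefSeq promoters were found for 6 of the 7 members, with 9 start sites in all, and Cdkn1c had no entry. A GC box lay in 7 of the 9 promoters, against 35.7% of 32851 mouse promoters of the same length. The E2F motif lay in 1 of the 9, the downstream start of Cdkn2a, against 1.38% of all promoters. Neither CTTTGA, the core bound by Tcf/Lef factors, nor TGTGGT, the core bound by Runx factors, was found on either strand in any of the 9, against 16% and 16.8% of all promoters. These are among the factors through which Tle proteins are known to act, and the absence of these letters from 300 bases says nothing about binding elsewhere. The promoter of Cdkn1b had 62% G and C, and those of Cdkn2a 77% at the upstream and 60.3% at the downstream start, against a median of 52.7% over all promoters.

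Cdkn1b dominated the family in every library. It made up 78.5%, 86.4% and 60.7% of the summed FPKM of the 7 genes in the libraries labelled Tle134-deficient, and 68.8%, 66.7% and 57.8% in WT. The sum itself was 50.9, 40.3 and 46.6 FPKM across the libraries labelled Tle134-deficient, against 31.4, 41.1 and 35.6 FPKM in WT, so the groups overlapped. The next member was Cdkn1a or Cdkn2c, depending on the library, and Cdkn1b exceeded it by a factor of 3.52 to 11.6 in the libraries labelled Tle134-deficient and 2.44 to 5.36 in WT. By mean FPKM over the 6 libraries the order was Cdkn1b (28.8), Cdkn1a (4.85), Cdkn2c (3.38), Cdkn2b (1.57), Cdkn2a (1.17), Cdkn2d (0.619) and Cdkn1c (0.610). Below Cdkn1b, every pair of neighbours in this order overlapped in range. The Ink4 genes together made up 17.9%, 6.14% and 22.0% of the family in the libraries labelled Tle134-deficient, against 18.7%, 5.47% and 29.4% in WT, lowest in replicate 2 of both groups.

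**Figure D1:**
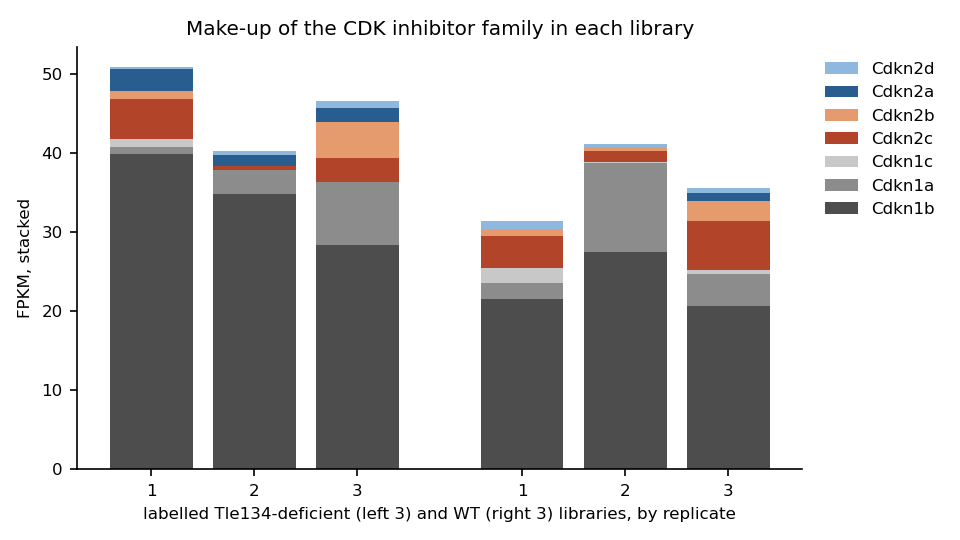
Summed FPKM of the 7 CDK inhibitor genes (y axis), stacked by gene, in the 3 libraries labelled Tle134-deficient (left) and the 3 WT libraries (right); each bar is 1 library. Cdkn1b is the largest block in each bar, from 57.8% of the sum in WT replicate 3 to 86.4% in labelled-deficient replicate 2.

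Cdkn1b (p27; mm9 chr6:134870419-134875543) had the most precise values of the family, with 221 to 627 fragments per value in the libraries labelled Tle134-deficient and 234 to 773 in WT. It was at 39.9, 34.8 and 28.3 FPKM across the libraries labelled Tle134-deficient, against 21.6, 27.4 and 20.6 FPKM in WT. The groups did not overlap, and the closest values were 28.3 FPKM in labelled-deficient replicate 3 and 27.4 FPKM in WT replicate 2. The deposited intervals of those libraries, 26.1 to 30.6 and 25.5 to 29.4 FPKM, were the only ones to overlap among the 9 pairs across groups. The means were 34.3 ± 5.82 and 23.2 ± 3.70 FPKM (SD, n = 3 each), a ratio of 1.48. The log2 difference was 0.54 ± 0.38 (SE) and did not pass the threshold over all genes (limma, adjusted p = 0.731). Cdkn1b ranked above 91.6% to 95.5% of all symbols in the libraries labelled Tle134-deficient and above 87.3% to 94.4% in WT. In these bulk libraries, a higher share of cells that hold a transcript and more transcript per cell cannot be told apart.

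Some reads within Cdkn1b were assembled into separate loci without a symbol, which are not in the values above. These held 44.7, 212 and 194 fragments in 2, 2 and 4 loci in the libraries labelled Tle134-deficient, against 51.9, 0 and 138 fragments in 1, 0 and 2 loci in WT. WT replicate 2, the library with none, was the WT library with the highest Cdkn1b. Whether reads moved between the named and the unnamed loci was not tested.

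Cdkn1a (p21; mm9 chr17:29227931-29237667), the inhibitor induced by p53 and by many stress and differentiation signals, varied more within the groups than between them. It was at 0.843, 3.0 and 8.03 FPKM across the libraries labelled Tle134-deficient, against 1.92, 11.2 and 4.06 FPKM in WT. The highest values were in labelled-deficient replicate 3 and WT replicate 2, and the range within a group was 9.53-fold and 5.86-fold. Its log2 difference was -0.48 ± 0.72 (SE; limma, adjusted p = 0.921). Its sign turned on single libraries: it was 0.09 without labelled-deficient replicate 1 and 0.08 without WT replicate 2. The lowest value rested on 4.9 fragments and the highest on 140.5. Unnamed loci inside Cdkn1a held 0, 48.9 and 17 fragments beside 4.9, 72.4 and 60.2 named ones in the libraries labelled Tle134-deficient, and 14.7, 75.5 and 37.6 beside 17, 140.5 and 51.4 in WT. They are not in its FPKM values, and their part in the spread was not tested.

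Cdkn1c (p57; mm9 chr7:150644244-150646955), an imprinted gene that keeps haematopoietic stem cells quiescent, was near the limit of detection. It was at 0.967 FPKM and listed at 0 in the other two libraries labelled Tle134-deficient, against 2.0, 0.188 and 0.511 FPKM in WT. Only WT replicate 1 exceeded 1 FPKM, with 19.0 fragments, and the others above 0 held 2.9 to 5.8. The groups overlapped, and the gene was too low to be tested with all genes (exact permutation test of log2(FPKM + 1), two-sided, p = 0.5, n = 3 each, where 0.1 is the smallest p possible).

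**Figure D2:**
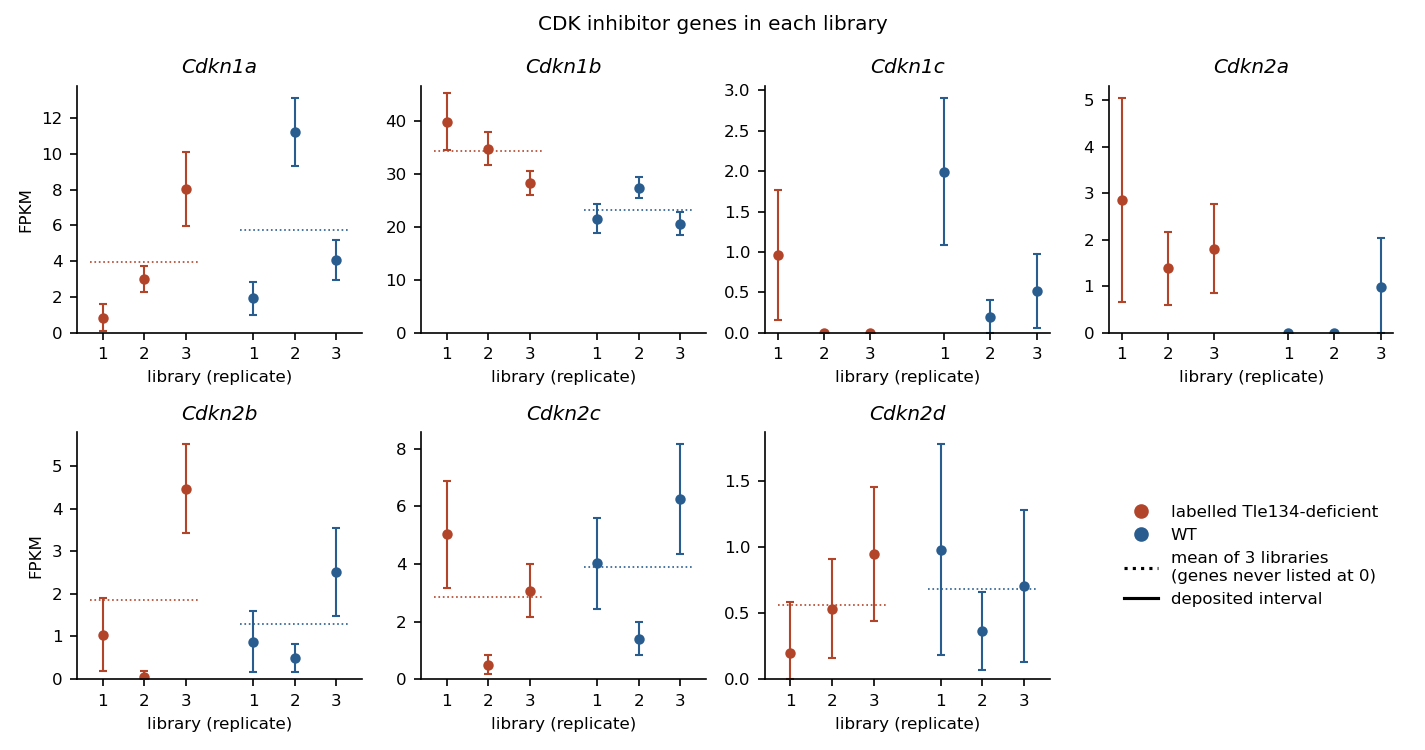
FPKM of each CDK inhibitor gene (y axis, scaled per gene from 0) in the 3 libraries labelled Tle134-deficient (red, left) and the 3 WT libraries (blue, right). Points are libraries, vertical bars the deposited intervals, and dotted lines group means for genes never listed at 0. The groups stand apart for Cdkn1b and Cdkn2a and overlap for the other 5 genes.

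Cdkn2a (p16 and Arf; mm9 chr4:88920377-88940523) was at 2.86, 1.38 and 1.80 FPKM across the libraries labelled Tle134-deficient, and was listed at 0, 0 and 0.978 FPKM in WT. The lowest labelled-deficient value, in replicate 2, was above the highest WT value, in replicate 3. The log2 difference was 1.23 ± 0.49 (SE), the largest of the tested members, with an unadjusted p of 0.0304 and an adjusted p of 0.410 (limma), so it did not pass the threshold. Cdkn2a passed the filter on low values only through the libraries labelled Tle134-deficient, where it is high. Its rank and p among the tested genes are therefore descriptive only. The values rest on few fragments, 6.8, 12.2 and 14.1 in the libraries labelled Tle134-deficient and 0, 0 and 3.4 in WT. The deposited interval of WT replicate 3 reached from 0 to 2.04 FPKM and overlapped those of all 3 labelled-deficient libraries. In WT replicate 2, where the gene is listed at 0, an unnamed locus of 307 bases inside its span (mm9 chr4:88934372-88934678) held 21 fragments. No unnamed locus lay inside the span in the other 5 libraries. Because the value covers both start sites, p16 and Arf transcripts cannot be told apart. A value listed at 0 can also be a failed estimate, so no ratio of means is given.

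Cdkn2b (p15; mm9 chr4:88952198-88956941), the neighbour of Cdkn2a and a target of TGF-beta signalling, varied more within the groups than between them. It was at 1.04, 0.0595 and 4.46 FPKM across the libraries labelled Tle134-deficient, against 0.874, 0.487 and 2.52 FPKM in WT. Replicate 3 was the highest of each group, with 73.1 and 23.7 fragments, and replicate 2 the lowest, with 1.0 and 9.0. The log2 difference was 0.09 ± 0.66 (SE; limma, adjusted p = 0.990), and its sign changed without labelled-deficient replicate 3 (-0.54), WT replicate 1 (-0.01) or WT replicate 2 (-0.17). Mtap, the next gene on the other side of Cdkn2a, was at 6.43, 20.8 and 7.28 FPKM against 6.70, 17.2 and 13.2 FPKM and also overlapped (log2 difference -0.19, limma adjusted p = 0.972).

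Cdkn2c (p18; mm9 chr4:109333481-109339361), the Ink4 gene best known from lymphoid progenitors, was the most abundant of its branch on average. It was at 5.04, 0.498 and 3.07 FPKM across the libraries labelled Tle134-deficient, against 4.02, 1.40 and 6.25 FPKM in WT. Replicate 2 was the lowest of each group, as for Cdkn2b. The log2 difference was -0.42 ± 0.66 (SE; limma, adjusted p = 0.930), and was 0.16 without labelled-deficient replicate 2.

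Cdkn2d (p19 of the Ink4 branch) was at 0.194, 0.532 and 0.944 FPKM across the libraries labelled Tle134-deficient, against 0.977, 0.363 and 0.703 FPKM in WT. No library reached 1 FPKM, so the gene was not tested with all genes (exact permutation test, two-sided, p = 0.7, n = 3 each). All 9 pairs of intervals across groups overlapped. The tables list Cdkn2d at 2 places on chromosome 9 of mm9, 21092908 to 21095653 and 123836860 to 123839607, and the value is the sum of both. In 5 libraries the listed expression was at the first place and in WT replicate 2 at the second, with 0 at the other. Reads from near-identical copies cannot be assigned to 1 of them, and the sources used here do not give how the authors treated such reads, so the level of Cdkn2d is uncertain. In each library 1.0 to 14.0 fragments stood behind it.

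Read over the family, 5 of the 7 genes reached 1 FPKM in at least 3 libraries and were tested among 11063 genes. None of the 5 passed the threshold (limma, adjusted p under 0.05), where 0.75% of all genes tested passed (0.642% higher and 0.108% lower in the libraries labelled Tle134-deficient). Cdkn2a alone had an unadjusted p under 0.05, where 10% of all genes tested did. Labelled-deficient values lay above WT without overlap for 2 of the 5, Cdkn1b and Cdkn2a, against 8.67% of all genes tested, and below WT for 0, against 6.56%. The median log2 difference of the 5 was 0.09, against 0.04 over all genes tested, with 3 differences above 0 and 2 below. Cdkn2a passed the filter on low values only through the 3 libraries labelled Tle134-deficient, where it is high, so its place among the tested members already requires a difference. These counts therefore describe the members tested, not the family.

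The kinases that these proteins bind were set beside them. Cdk6, a target of the Ink4 proteins, was at 12.2, 9.33 and 25.1 FPKM across the libraries labelled Tle134-deficient, against 40.8, 25.2 and 29.1 FPKM in WT. The groups did not overlap, though labelled-deficient replicate 3 lay just under WT replicate 2 (log2 difference -1.07 ± 0.45, SE; limma, adjusted p = 0.456). Cdk4, the other target, was at 25.2, 19.0 and 51.1 FPKM against 45.5, 33.2 and 90.5 FPKM, lowest in replicate 2 and highest in replicate 3 of both groups (limma, adjusted p = 0.707). Cdk2, the kinase bound by the Cip/Kip proteins, was at 20.6, 9.51 and 20.8 FPKM against 51.9, 14.8 and 10.9 FPKM (limma, adjusted p = 0.944). Of the D cyclins, Ccnd2 and Ccnd3 were the abundant ones, at 26.8 ± 21.3 and 29.7 ± 6.58 FPKM across the libraries labelled Tle134-deficient and 33.1 ± 10.6 and 31.4 ± 5.51 FPKM in WT (SD, n = 3 each). Ccnd1 was at 7.99, 4.24 and 4.74 FPKM against 2.33, 2.26 and 4.47 FPKM. The E cyclins were highest in replicate 3 of both groups: Ccne1 was at 0.938, 3.14 and 7.12 FPKM against 1.67, 1.69 and 5.31 FPKM, and Ccne2 was at 7.16 FPKM in labelled-deficient replicate 3 and 7.04 FPKM in WT replicate 3, against 0 to 2.40 FPKM in the other 4 libraries. Of the 13 G1 cyclin and CDK genes, all tested, 0 passed the threshold, with 6 differences above 0 and 7 below and a median of -0.09.

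A ratio within a library depends on how that library was scaled only through the 1 FPKM added to each value. The log2 ratio of Cdkn1b to Cdk2 was 0.92, 1.77 and 0.43 in the libraries labelled Tle134-deficient, against -1.23, 0.85 and 0.86 in WT, and the groups overlapped (difference 0.88, exact permutation p = 0.4). Without WT replicate 1 the difference was 0.19. Against the sum of Cdk4 and Cdk6, Cdkn2a had log2 ratios of -3.31, -3.62 and -4.78 in the libraries labelled Tle134-deficient and -6.45, -5.89 and -5.93 in WT. These groups did not overlap (difference 2.18, exact permutation p = 0.1, the smallest that 3 against 3 allows; adjusted over the 7 ratios 0.233). Cdkn2b and Cdkn2d also had higher ratios without overlap (differences 1.04 and 0.83, exact permutation p = 0.1 each, adjusted 0.233), and Cdkn2c overlapped (0.53, exact permutation p = 0.6). With 0.1 FPKM added in place of 1, the groups overlapped for Cdkn2b and Cdkn2d, and with 5 FPKM added for Cdkn2d. They stood apart for Cdkn2a at both, but the size of its difference followed the amount added, 4.16 with 0.1 FPKM and 1.28 with 5 FPKM. The difference for Cdkn2d was 0.53 without labelled-deficient replicate 2. The 4 Ink4 ratios share their denominator, so they are not separate observations. It was 37.4, 28.4 and 76.2 FPKM across the libraries labelled Tle134-deficient and 86.3, 58.4 and 119.6 FPKM in WT. Cdkn2b and Cdkn2d themselves overlapped between groups in FPKM. The share of all genes whose ratio to this denominator stands apart was not computed. The separations are therefore not read as particular to the inhibitors.

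**Figure D3:**
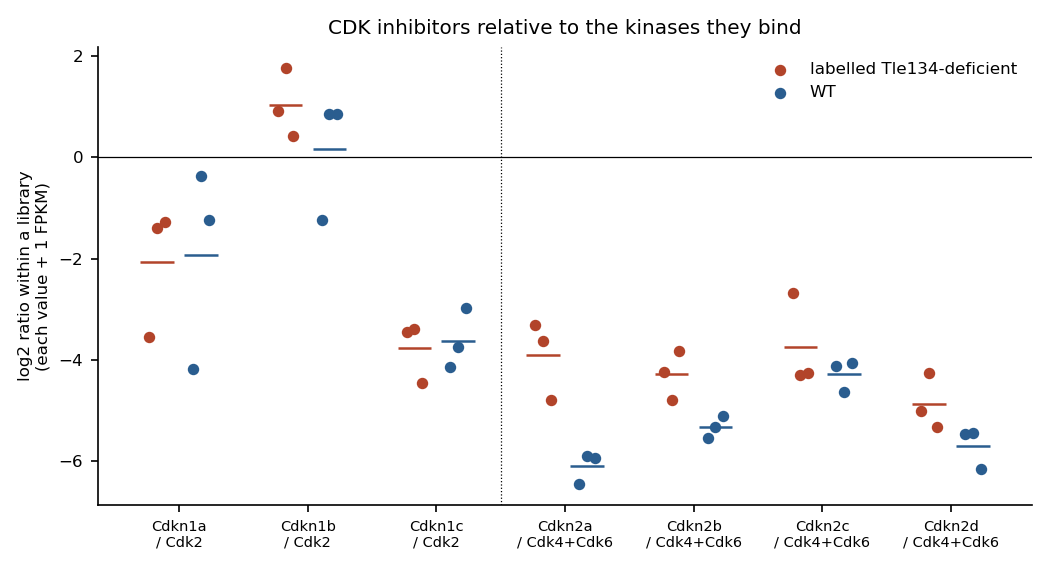
Log2 ratio of each CDK inhibitor gene to the kinases it binds (y axis, 1 FPKM added to each value), with Cip/Kip genes over Cdk2 left of the dotted line and Ink4 genes over the sum of Cdk4 and Cdk6 right of it. Points are libraries, labelled Tle134-deficient (red) left of WT (blue), and short lines are means; for Cdkn2a the lowest labelled-deficient ratio (-4.78) lies above the highest WT ratio (-5.89).

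Genes downstream and upstream of the inhibitors were read from lists, and none of their members passed the threshold. In the Rb and E2F family, the repressors and factors released when CDKs are active, 7 of 12 tested differences were above 0 (median 0.06). E2f2, an activating E2F expressed in lymphoid and erythroid precursors, was at 17.4, 11.9 and 12.0 FPKM across the libraries labelled Tle134-deficient, against 4.61, 2.49 and 4.16 FPKM in WT. It did not overlap between groups (log2 difference 1.65 ± 0.43, SE; limma, adjusted p = 0.145). E2f5 was at 5.33, 7.85 and 10.5 FPKM against 0, 3.74 and 5.10 FPKM (limma, adjusted p = 0.526).

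Among replication and mitosis genes, which CDK inhibitors hold down, 17 of 22 differences were below 0 and 5 above (median -0.37), with 0 past the threshold. The summed FPKM of the 22 was 305, 232 and 593 in the libraries labelled Tle134-deficient, against 349, 358 and 603 in WT, highest in replicate 3 of both groups. Cdc6, which loads the replicative helicase, was lower without overlap, at 2.12, 1.06 and 3.39 FPKM against 4.26, 5.62 and 10.6 FPKM (limma, adjusted p = 0.447). Its partner Cdt1 was higher without overlap, at 43.3, 16.6 and 10.9 FPKM against 6.19, 8.29 and 10.3 FPKM (limma, adjusted p = 0.473). Of the 22, 1 was higher and 2 were lower without overlap, against 8.67% and 6.56% of all genes tested.

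Of 10 genes for the turnover of p27 and p21, 5 differences were above 0 and 5 below. Rnf123, the catalytic subunit of the KPC ubiquitin ligase that acts on p27 in G1, was at 28.6, 18.7 and 11.0 FPKM across the libraries labelled Tle134-deficient, against 11.2, 8.46 and 4.22 FPKM in WT (limma, adjusted p = 0.451). Skp2, the F-box protein that recognises phosphorylated p27 in S phase, was at 0.974, 1.47 and 5.72 FPKM against 3.82, 4.42 and 6.54 FPKM (limma, adjusted p = 0.713).

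The Foxo and TGF-beta list holds factors known to induce Cdkn1b, Cdkn1a or Cdkn2b, beside a TGF-beta ligand, its receptors and an inhibitory Smad. Of its 14 tested differences 9 were above 0 (median 0.09), which is not a count of inducers. Klf2, a factor of lymphocyte quiescence, was at 178, 189 and 81.4 FPKM across the libraries labelled Tle134-deficient, against 29.1, 37.0 and 25.0 FPKM in WT (log2 difference 2.19 ± 0.48, SE; limma, adjusted p = 0.0897). Foxo1, which activates Cdkn1b transcription, was at 24.0, 23.6 and 10.2 FPKM against 12.6, 6.58 and 7.21 FPKM (limma, adjusted p = 0.518). Values were higher without overlap for 3 of the 14, Klf2, Foxo4 and Tgfb1, against 8.67% of all genes tested, and Foxo4 and Tgfb1 are named because of their values.

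**Figure D4:**
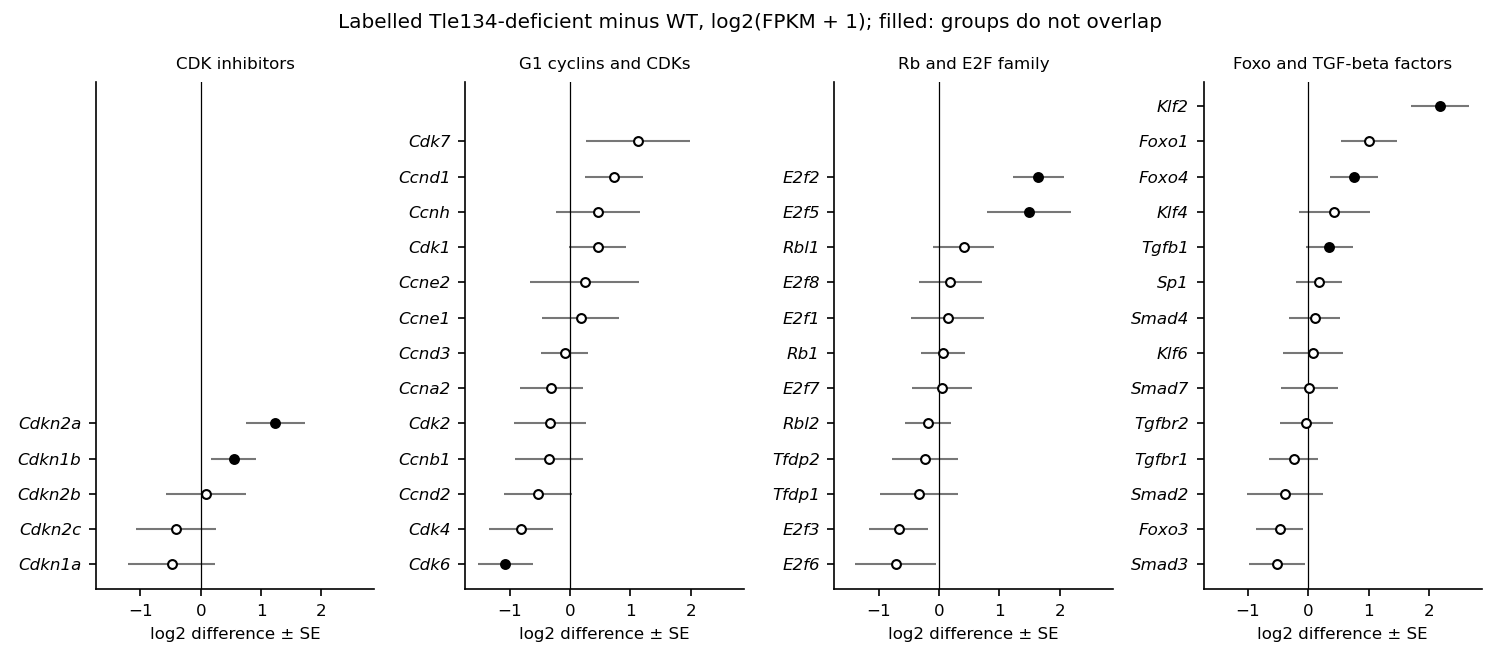
Log2 difference of log2(FPKM + 1), labelled Tle134-deficient minus WT (x axis), with SE from limma, for the tested genes of 4 lists. Filled points are genes whose groups do not overlap. Among the inhibitors these are Cdkn1b (0.54) and Cdkn2a (1.23), and Klf2 (2.19) has the largest difference shown. Cdkn2a passed the filter on low values only through the libraries labelled Tle134-deficient.

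For the Ink4/Arf locus, 7 of 16 tested differences of Polycomb genes and other regulators were above 0 and 9 below (median -0.10). Suz12, a subunit of Polycomb complex PRC2, was at 27.9, 29.0 and 21.3 FPKM across the libraries labelled Tle134-deficient, against 11.1, 12.6 and 22.1 FPKM in WT (limma, adjusted p = 0.590). Zbtb17, which encodes Miz-1, a factor at the Cdkn1a and Cdkn2b promoters, was listed at 0, 0 and 14.7 FPKM against 4.84, 6.64 and 9.16 FPKM (limma, adjusted p = 0.674). In the Arf-p53 axis, 4 of 8 differences were above 0 and 4 below (median -0.02). Its members with the smallest p were the checkpoint kinase gene Chek2, at 2.76, 1.40 and 4.22 FPKM against 1.60, 10.7 and 6.31 FPKM, and Trp53, at 22.2, 27.7 and 24.2 FPKM against 23.4, 31.1 and 47.4 FPKM (limma, adjusted p = 0.800 and 0.853). Of 15 p53 targets tested 8 differences were above 0 and 7 below (median 0.38). Bbc3, which encodes the cell death protein Puma, was at 0.811, 1.07 and 5.31 FPKM against 10.7, 5.49 and 9.68 FPKM (limma, adjusted p = 0.326), and Pmaip1, which encodes Noxa, at 27.2, 12.5 and 58.1 FPKM against 1.51, 18.7 and 3.62 FPKM (limma, adjusted p = 0.331).

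Markers of some other cells, though not of all those listed, moved with the groups. Of 18 B-lineage markers 12 rose in the libraries labelled Tle134-deficient (limma, adjusted p under 0.05), against 0.642% of all genes tested, among them Cd22, Fcer2a and Fcmr (log2 differences 4.01 to 4.22). Their summed FPKM was 1559, 1272 and 934 in the libraries labelled Tle134-deficient, against 113, 101 and 200 in WT, and the early B-cell gene Vpreb1 was listed at 0 in labelled-deficient replicate 3 and in WT replicates 2 and 3. Cdkn1b followed the order of this sum within the libraries labelled Tle134-deficient (39.9, 34.8 and 28.3 FPKM), but not in WT, where it was highest in the library with the lowest sum. The summed T-lineage markers and the summed stromal and endothelial markers had the same order across the libraries labelled Tle134-deficient, and the T-lineage sum was also lowest in WT replicate 2. Cdkn2a, the other member that stood apart, was highest in labelled-deficient replicate 1 (2.86 FPKM, on 6.8 fragments). In replicates 2 and 3 it was at 1.38 and 1.80 FPKM, on 12.2 and 14.1 fragments. The deposited intervals of replicates 1, 2 and 3 overlapped (0.66 to 5.05, 0.59 to 2.17 and 0.84 to 2.76 FPKM). The order of Cdkn2a among them is thus not resolved and is not compared with that of the B-lineage sum. The part of B-lineage RNA in either result was not tested. T-lineage markers summed to 737, 347 and 224 FPKM against 1009, 486 and 1227 FPKM, with 13 of 13 tested differences below 0 and 0 past the threshold, and Ptcra was listed at 0 in labelled-deficient replicates 1 and 3 and WT replicate 1.

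Monocyte, macrophage and neutrophil markers summed to 135, 132 and 1538 FPKM across the libraries labelled Tle134-deficient, against 147, 316 and 662 FPKM in WT, with 0 of 11 past the threshold. S100a9 was listed at 0 in 4 of the 6 libraries, and in neither replicate 3. Cdkn2b was highest in those 2 libraries, and the part of myeloid RNA in its values was not tested. The summed NK and cytotoxic markers, mast cell and basophil markers, and replication and mitosis genes were also highest in replicate 3 of both groups. The order is therefore not particular to the myeloid markers. Stromal and endothelial markers summed to 123, 98.4 and 54.7 FPKM against 319, 125 and 408 FPKM, with 3 of 9 tested differences above 0 and 6 below. Of the 9, 2 fell, Egfl7 and Pdgfrb (limma, adjusted p = 0.0467 and 0.0469), against 0.108% of all genes tested. Egfl7, at 0.723, 0.753 and 4.50 FPKM against 15.5, 21.8 and 19.7 FPKM, passed the filter on low values through the WT libraries. The endothelial gene Pecam1 went the other way without overlap, at 39.2, 39.9 and 30.0 FPKM against 21.7, 21.1 and 17.3 FPKM (limma, adjusted p = 0.506). Dendritic cell markers (121, 176 and 144 FPKM against 52.3, 57.1 and 61.1 FPKM), NK and cytotoxic markers (54.8, 47.7 and 152 against 74.6, 26.7 and 127), mast cell and basophil markers (11.2, 25.9 and 131 against 123, 86.9 and 265) and erythroid and megakaryocytic markers (0.891, 7.53 and 94.3 against 7.45, 8.66 and 7.08) had 0 members past the threshold. Values were higher without overlap for 3 of 9 dendritic and 1 of 4 NK markers tested, against 8.67% of all genes tested. They were lower for 2 of 4 NK and 3 of 8 mast cell markers, against 6.56%. Some of the lower ones passed the filter on low values only through the WT libraries.

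**Figure D5:**
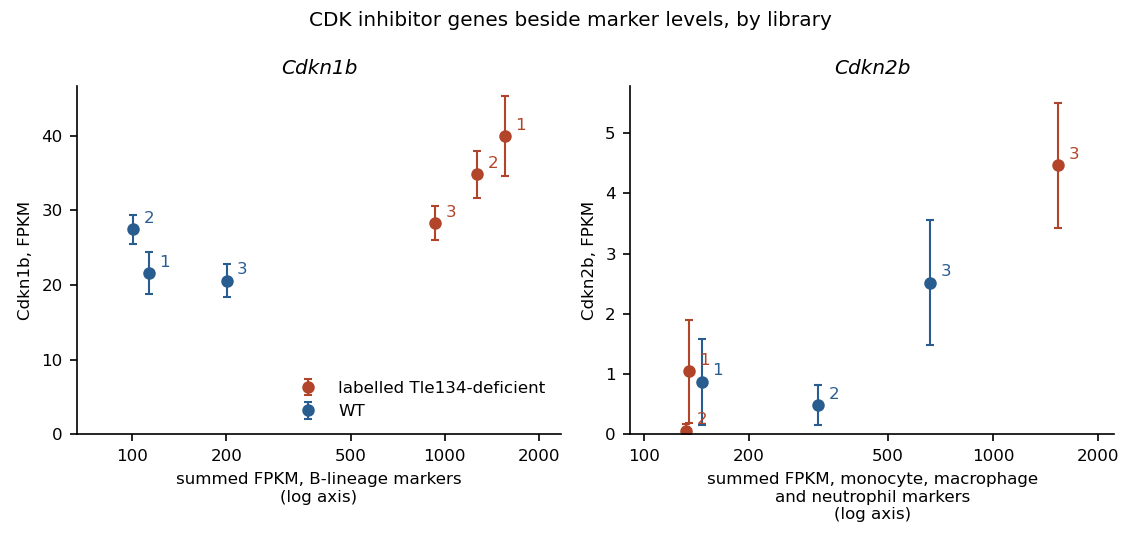
FPKM of Cdkn1b against the summed FPKM of B-lineage markers (left) and of Cdkn2b against that of monocyte, macrophage and neutrophil markers (right; x axes are logarithmic). Points are libraries numbered by replicate, labelled Tle134-deficient in red and WT in blue, with the deposited interval of the inhibitor gene. Cdkn2b is highest in replicate 3 of each group (4.46 and 2.52 FPKM), as are the sums of some other lists that are not shown.

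Cdkn1b was the member above 1 FPKM in all 6 libraries, so its pattern could be set beside those of other genes. Of 7069 annotated genes with a mean of at least 5 FPKM, the most alike by root-mean-square difference of centred log2(FPKM + 1) over the 6 libraries were Chst15 (0.108), a sulfotransferase gene of chondroitin sulfate synthesis, Dapk3 (0.113), a protein kinase gene, and Tpp2 (0.115), a peptidase gene. Chst15 was at 13.6, 14.3 and 11.5 FPKM across the libraries labelled Tle134-deficient, against 8.17, 9.25 and 7.27 FPKM in WT. The 3 did not pass the threshold either (limma, adjusted p = 0.680, 0.664 and 0.833). The likeness is a description over 6 libraries that share their depth and scaling.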

How the data were processed

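RNA from 6 libraries was sequenced, 3 labelled Tle134-deficient and 3 WT. The build was mm9, and the tools named include TopHat2 2.1.1, Trimmomatic 0.38 and featureCounts 2.0.1, per the submitters' processing notes. Each library has a deposited table of FPKM in the layout of Cufflinks gene tracking, with bounds around each value, per the file headers. The sources used here do not give the Cufflinks version, the annotation or the use of strand, so overlapping and antisense reads cannot be told apart. FPKM was summed over the rows of a symbol. Other symbols that share a locus were joined (23401 units), and no member shares one. Counts were not used, so depth is approximate and covers counting error only.

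Genes at 1 FPKM or more in at least 3 libraries (11063) were fitted as log2(FPKM + 1) in limma (version 3.58.1, R 4.3.3), using a model of group alone with trend and robust moderation. P-values were adjusted by Benjamini-Hochberg at 0.05, and the script was tested on simulated data. The log2(FPKM + 1) scale understates the change of low genes. Ratios were tested by exact two-sided permutation (scipy 1.17.1, Python 3.11.15). Start positions were raised by 1.

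The members and lists were chosen with earlier results of these data known. Genes named are the members, Tle1, Tle3 and Tle4, the CDK and cyclin partners, Mtap, genes of the sort gate and, per list, up to 4 members past the threshold or else the 2 of smallest p, and the 3 genes most like Cdkn1b. A gene that this rule names is not reported here. Foxo4, Tgfb1, Vpreb1, Ptcra, S100a9 and Pecam1 fall outside it and were chosen after their values were seen. Alternatives tried were other pseudocounts, filters and scalings, no trend, symbols unjoined, a replicate block, each library left out, and replicate 1 or 3 of both groups left out, the last pair chosen after seeing the data.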

Additional observations from a re-analysis of the deposited data

How the results depend on the processing

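No CDK inhibitor gene passed the threshold under any of the 17 alternatives. Cdkn1b kept a log2 difference above 0 (0.33 to 0.67), lowest with upper-quartile scaling, which moved the median of all genes to -0.15 from 0.04. Cdkn2a also stayed above 0 (0.40 with 5 FPKM added to 3.20 with 0.1 FPKM added), in every alternative that tested it. The adjusted p over the alternatives ran from 0.527 to 0.999991 for Cdkn1b and from 0.328 to 0.991 for Cdkn2a. Cdkn2b turned to -0.28 with 0.1 FPKM added, -0.023 with upper-quartile scaling and -0.18 without replicate 3 of both groups. Without 1 library its range was -0.54 to 0.64, that of Cdkn1a -1.06 to 0.088 and that of Cdkn2c -0.86 to 0.16. The log2 ratio differences turned to 0.054 for Cdkn1a and 0.16 for Cdkn1c with 5 FPKM added, and without 1 library ran from -1.27 to 0.64 for Cdkn1a, -0.41 to 0.19 for Cdkn1c, -0.00102 to 0.81 for Cdkn2c, 0.19 to 1.23 for Cdkn1b and 0.53 to 1.05 for Cdkn2d. Over all genes, 83 passed, against 53 with 0.1 FPKM added, 0 of 18943 with no filter (1181 at an unadjusted p under 0.05), 55 without trend and robust step, 0 to 58 without 1 library (0 without labelled-deficient replicate 1 or 2 or WT replicate 1, with 951, 956 and 877 at an unadjusted p under 0.05, and 4 without WT replicate 2), 0 without replicate 1 (720 unadjusted) and 21 without replicate 3 of both groups. With the replicate block 2 passed. Same-numbered libraries deviated together with correlations of 0.084, 0.182 and 0.174, against -0.196 to 0.035 for libraries of different number. The deviations were taken from the mean of each group's own 3 libraries. These correlations therefore depend on each other, and the contrast is partly built in. The sources used here do not state that the numbers pair libraries. Whether they do was not tested, so the block is given only as an alternative. The cause was not tested for any of these changes. Low fragment numbers limit all members but Cdkn1b.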
